A study of Mus musculus with 18 samples.

Results

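The matrix metalloproteinases (MMPs) and their tissue inhibitors (TIMPs) were followed as 10 genes chosen by name, Mmp2, Mmp7, Mmp9, Mmp12, Mmp13, Mmp14 and Timp1 to Timp4, out of 34937 genes counted in 18 mouse livers. All 10 passed the filter on low counts, among 17789 genes that did. Every mouse had received carbon tetrachloride, a toxin that kills hepatocytes around the central vein, injected intraperitoneally at a dose of 0.5 µL per g. MycER joins the transcription factor MYC to the part of the estrogen receptor that binds hormone, and 1 mg of tamoxifen injected daily switched it on. Group 12 was taken 12 days after the injury without MycER activation and group 12ON on the same day with it. Groups 1OFF, 2OFF, 3OFF and 7OFF carry the label of 1, 2, 3 and 7 days after injury without activation, and how these days relate to the 12 days of the other groups is unclear from the labels. Each group held 3 mice and each mouse gave 1 poly-A library. The labels name no promoter or Cre line behind MycER, no strain, age or sex, no group without injury, and do not say whether group 12 or the OFF mice had received tamoxifen at any time. The study's own comparisons were 12ON with group 12 and each OFF group with 12ON.

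MMPs are zinc-dependent enzymes, secreted as inactive precursors or anchored in the plasma membrane, that cut collagens, elastin, gelatin and other matrix proteins. TIMPs bind the active site of MMPs and block it, and TIMP2 with MMP14 also forms the complex that activates the MMP2 precursor. In injured liver, stellate cells, macrophages, neutrophils and bile duct cells are known sources, and the balance of enzymes to inhibitors is a textbook element of how scar matrix is laid down and removed.

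Libraries held 23057899 to 75276898 counts in genes. The mitochondrial share of the counts was 4.80% to 5.25% in group 12, against 6.42% to 7.11% in 12ON and 5.36% to 7.33% over the OFF groups, so group 12 overlapped with no other group in it. The 7OFF livers, at 5.54% to 6.19%, also lay below all those of 12ON. In comparisons with group 12, and in 7OFF against 12ON, a term for this share therefore varies with the group itself. A call lost with that term cannot be assigned to the share or to the group. Xist, made by the inactive X chromosome of female cells, was above 100 CPM in 5 libraries, 1 in each group other than 1OFF. Hepatocyte markers were abundant in every group, with a summed level of at least 35363 CPM in any library, so the labelled tissue was seen in its defining markers. Levels below are CPM, read counts relative to the TMM-scaled library total, and errors of levels are SD over 3 mice. A gene was called when the p of the quasi-likelihood F test in edgeR, adjusted by Benjamini-Hochberg over all tested genes, was under 0.05, and errors of log2 fold changes are standard errors. In whole liver, more or fewer cells of a type and more or less RNA per cell cannot be told apart.

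Per base of transcript the family was led by Mmp14, the membrane-type enzyme, at a mean of 15.9 RPKM (CPM per kilobase of exon) over the 18 libraries. Timp2 came next at 6.96 RPKM, before Mmp12 at 4.96, Mmp2 at 4.24, Timp4 at 3.83, Timp3 at 3.41 and Mmp9 at 3.39 RPKM. Timp1 at 1.97, Mmp13 at 1.08 and Mmp7 at 0.588 RPKM were the lowest. Other MMP genes were not ranked by RPKM. Among them Mmp19 was at 85.8 ± 2.08 CPM in group 12 and 61.3 ± 6.62 CPM in 12ON. Mmp14 was at 62.1 ± 10.4 and 67.9 ± 5.72 CPM in these groups. The 10 genes also differed in how much they varied between libraries. The coefficient of variation of the CPM values was 15.6% for Timp3, 17.4% for Mmp14 and 19.1% for Timp2, whereas it was 86.5% for Mmp13, 110% for Timp4 and 112% for Mmp7. The highest group mean of Timp4 was 292 times its lowest, that of Mmp7 37.4 times and that of Timp2 1.13 times.

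**Figure D1:**
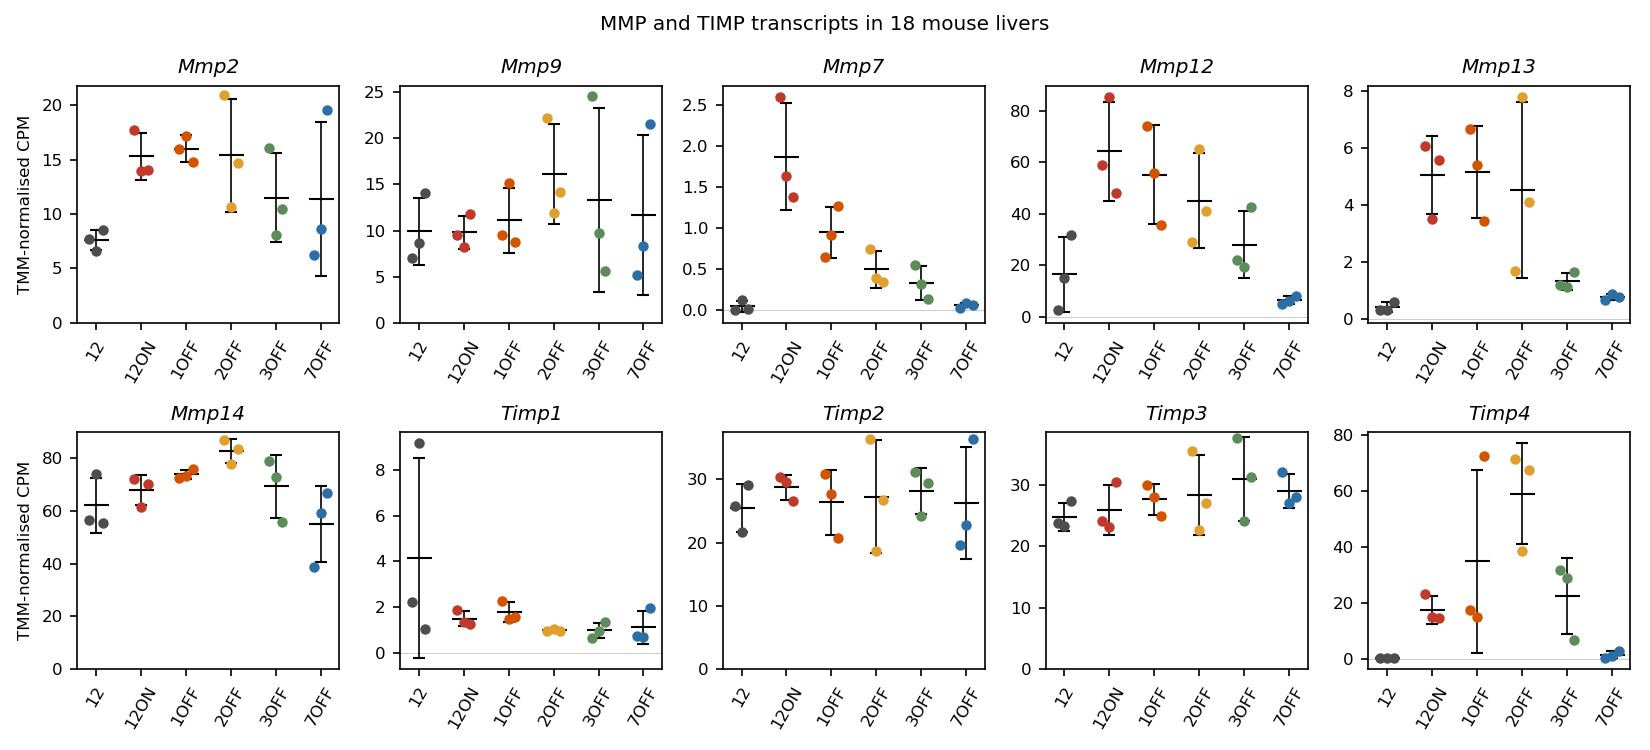
TMM-normalised CPM of the 10 genes in each of the 18 livers, by group along the horizontal axis, with 1 panel and 1 vertical scale per gene. Points are mice, horizontal bars the mean and whiskers the SD of 3 mice; Mmp7, Mmp13 and Timp4 lie near 0 in group 12 and well above it in 12ON, while Timp2 and Timp3 overlap in every neighbouring pair of groups.

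Summed over the 6 enzymes, the level was 22.2 ± 3.48 RPKM in group 12 and 36.1 ± 1.92 RPKM in 12ON. The sum of the 4 inhibitors was 14.3 ± 3.88 RPKM in group 12 and 15.2 ± 1.34 RPKM in 12ON. In 12ON the ratio of the sums was 2.27 to 2.48 per liver, and in group 12 it was 1.29 to 2.02, with no overlap. The lowest ratio, 1.29, was that of 12 replicate 2, where Timp1 alone gave 10.3 of the 18.8 RPKM of inhibitors. That ratio therefore depends on 1 high value of 1 gene. In the OFF groups the ratio was 2.07 ± 0.575 in 1OFF, 1.82 ± 0.543 in 2OFF, 1.77 ± 0.0766 in 3OFF and 1.76 ± 0.344 in 7OFF. These sums weight every transcript alike and are descriptions without a test. They also leave out the other MMP genes, which together held 121 to 123 CPM per liver in group 12 and 148 to 163 CPM in 12ON. The 6 enzymes held 74.5 to 110 and 151 to 174 CPM, so the ratio is not that of all MMPs to TIMPs. Mmp14 made up 65.6% ± 10.9 of the enzyme sum in group 12 and 43.8% ± 3.91 in 12ON, and Mmp12 9.59% ± 8.06 and 24.6% ± 7.33.

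**Figure D2:**
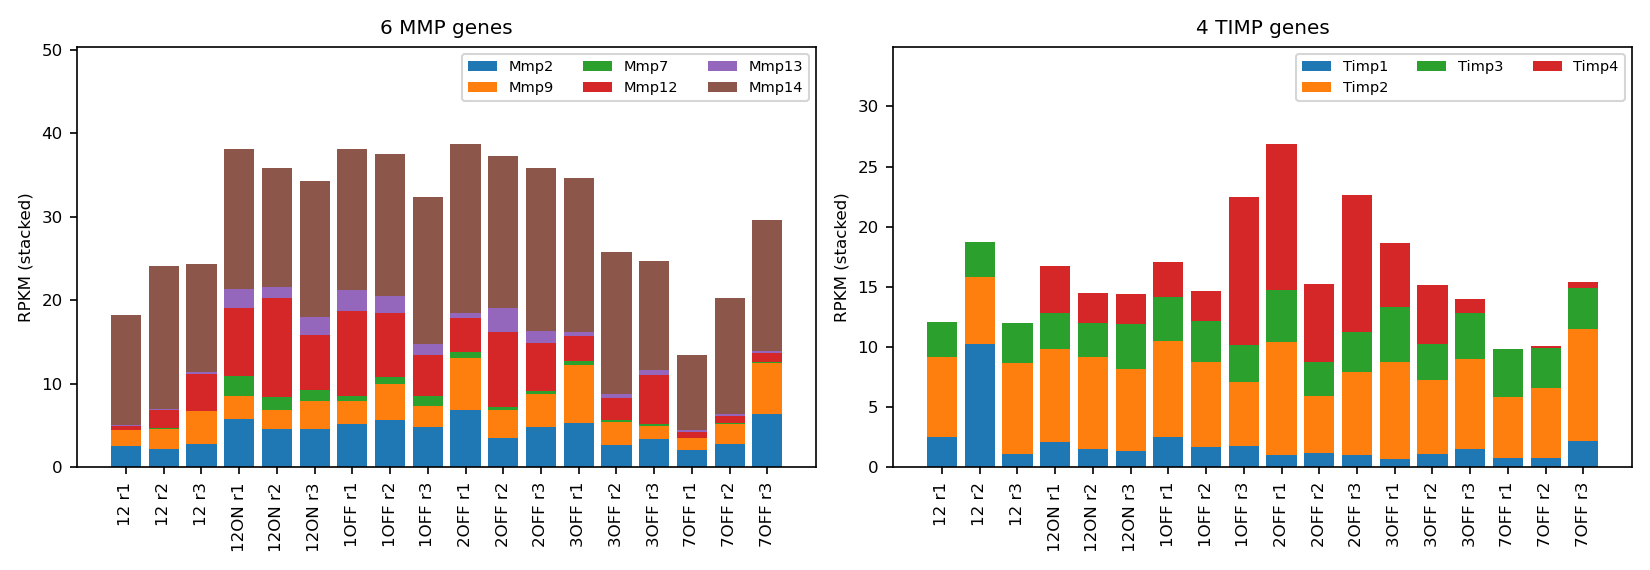
Stacked RPKM of the 6 MMP genes (left) and the 4 TIMP genes (right) in each of the 18 livers, labelled by group and replicate (r1 to r3). The enzyme stack reaches 34.3 to 38.1 RPKM in 12ON and 18.2 to 24.3 RPKM in group 12, and Timp4 makes a visible part of the inhibitor stack in all 12ON, 1OFF, 2OFF and 3OFF livers.

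The first comparison asked how livers with active MycER differed from those without it 12 days after injury. Of the 10 genes, 5 were higher in 12ON (Mmp2, Mmp7, Mmp12, Mmp13 and Timp4) and 1 was lower (Timp1), while Mmp9, Mmp14, Timp2 and Timp3 did not pass. Over all 17789 tested genes 24% were higher and 22.6% lower, so being called was common in this comparison. The median log2 fold change was 0.59 over the 10 genes and -0.005 over all tested genes. Mmp7, Mmp13 and Timp4 had the largest log2 fold changes of the 10.

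Among the gelatinases, which digest denatured collagen and basement membrane collagen, Mmp2 (ENSMUSG00000031740, chromosome 8, 92827328 to 92853417 in GRCm38) was measured at 7.73, 6.61 and 8.49 CPM in group 12 and at 17.8, 14.0 and 14.1 CPM in 12ON. All 3 livers of 12ON lay above all 3 of group 12. The log2 fold change was 1.00 ± 0.35 (edgeR, adjusted p = 0.0277). The call was lost without 12 replicate 1 (adjusted p = 0.0615), 12 replicate 2 (0.088) or 12ON replicate 1 (0.0842). With the mitochondrial share as a term the difference was 0.29 (adjusted p = 0.699). Mmp9 (chromosome 2, 164940780 to 164955850), the gelatinase stored in neutrophil granules, was at 9.90 ± 3.67 CPM in group 12 and 9.81 ± 1.81 CPM in 12ON (log2 -0.03 ± 0.52, adjusted p = 0.973). Its ranges overlapped between the groups.

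Mmp7 (chromosome 9, 7692090 to 7699585) encodes matrilysin, a small epithelial enzyme that in liver is known from bile duct cells. It had 0, 4 and 1 reads in the libraries of group 12 and 141, 74 and 73 reads in those of 12ON. The levels were 0, 0.128 and 0.0215 CPM in group 12, where the 0 allows up to 0.156 CPM (3 reads), and 2.60, 1.63 and 1.38 CPM in 12ON. Every 12ON liver lay far above group 12. Pooled over libraries the level in 12ON was 36.6 times that in group 12, with an exact 95% interval of 15.5 to 113 that covers counting error only. The fitted log2 fold change was 5.10 ± 0.67 (edgeR, adjusted p = 2.45e-05), and 6.72 without 12 replicate 2, which held most of the reads of that group.

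Mmp12 (chromosome 9, 7344381 to 7369499), the metalloelastase of macrophages, was at 2.75, 14.99 and 31.8 CPM in group 12 and at 59.1, 85.4 and 48.0 CPM in 12ON. The groups did not overlap, although group 12 alone spread over more than 10-fold. The log2 fold change was 1.93 ± 0.57 (edgeR, adjusted p = 0.0113). Without 12 replicate 3 it was 2.82, and with the mitochondrial share as a term 1.03 (adjusted p = 0.388). Mmp13 (chromosome 9, 7272514 to 7283333), the main collagenase of the mouse, which cleaves fibrillar collagen, was at 0.311, 0.321 and 0.603 CPM in group 12 and at 6.08, 3.52 and 5.58 CPM in 12ON. Each 12ON liver exceeded each group 12 liver, and the log2 fold change was 3.54 ± 0.50 (adjusted p = 4.31e-05).

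Mmp14 (chromosome 14, 54431612 to 54441265) encodes MT1-MMP, which cuts collagen at the cell surface and activates the MMP2 precursor. It was at 62.1 ± 10.4 CPM in group 12 and 67.9 ± 5.72 CPM in 12ON (log2 0.13 ± 0.17, adjusted p = 0.564), with overlapping ranges.

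Of the inhibitors, Timp4 (chromosome 6, 115241892 to 115252205) showed the largest difference of the 10 genes. This member of the family is known mainly from heart and brain. It was at 0.156, 0.257 and 0.194 CPM in group 12, from 3, 8 and 9 reads, and at 23.3, 14.8 and 14.6 CPM in 12ON. The pooled level was 85.8 times higher in 12ON (exact 95% interval 55.4 to 141, counting error only). The fit gave a log2 fold change of 6.39 ± 0.98 (edgeR, adjusted p = 9.48e-05), and 7.58 with the mitochondrial term. Timp1 (chromosome X, 20870166 to 20874735), the inducible inhibitor that is a usual marker of liver fibrosis, was at 2.23, 9.18 and 1.03 CPM in group 12 and at 1.85, 1.36 and 1.24 CPM in 12ON. A single liver, 12 replicate 2, stood above all others, and the rest of the values overlapped. The log2 fold change of -1.48 ± 0.58 (adjusted p = 0.0488) became -0.09 without that liver (adjusted p = 0.897), so the call rests on it. It was also lost without 12ON replicate 1, 2 or 3, at -1.66, -1.42 and -1.37 (edgeR adjusted p = 0.0685, 0.119 and 0.127). With the mitochondrial term it was -1.32 (0.36), and upper-quartile scaling, no filter, the Xist term and a fit of the groups compared alone also ended the call (0.0516, 0.0546, 0.0576 and 0.127).

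Timp2 (chromosome 11, 118301069 to 118355740), the inhibitor that takes part in MMP2 activation, was at 25.5 ± 3.78 CPM in group 12 and 28.8 ± 1.98 CPM in 12ON (log2 0.17 ± 0.24, edgeR adjusted p = 0.577). Timp3 (chromosome 10, 86300372 to 86349506), which binds to the matrix and also inhibits ADAM proteases, was at 24.8 ± 2.28 and 25.9 ± 4.02 CPM (log2 0.06 ± 0.17, adjusted p = 0.799). On raw library totals, without TMM factors, it was at 21.1 and 30.8 CPM, so its level in these groups depends on the scaling. Per length, Timp4 in 12ON stood at 2.98 ± 0.840 RPKM, beside 3.18 ± 0.493 RPKM for Timp3 and 7.40 ± 0.508 RPKM for Timp2. In group 12 it stood at 0.0343 ± 0.00866 RPKM, where Timp3 was at 3.04 ± 0.280 and Timp2 at 6.56 ± 0.969 RPKM.

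**Figure D3:**
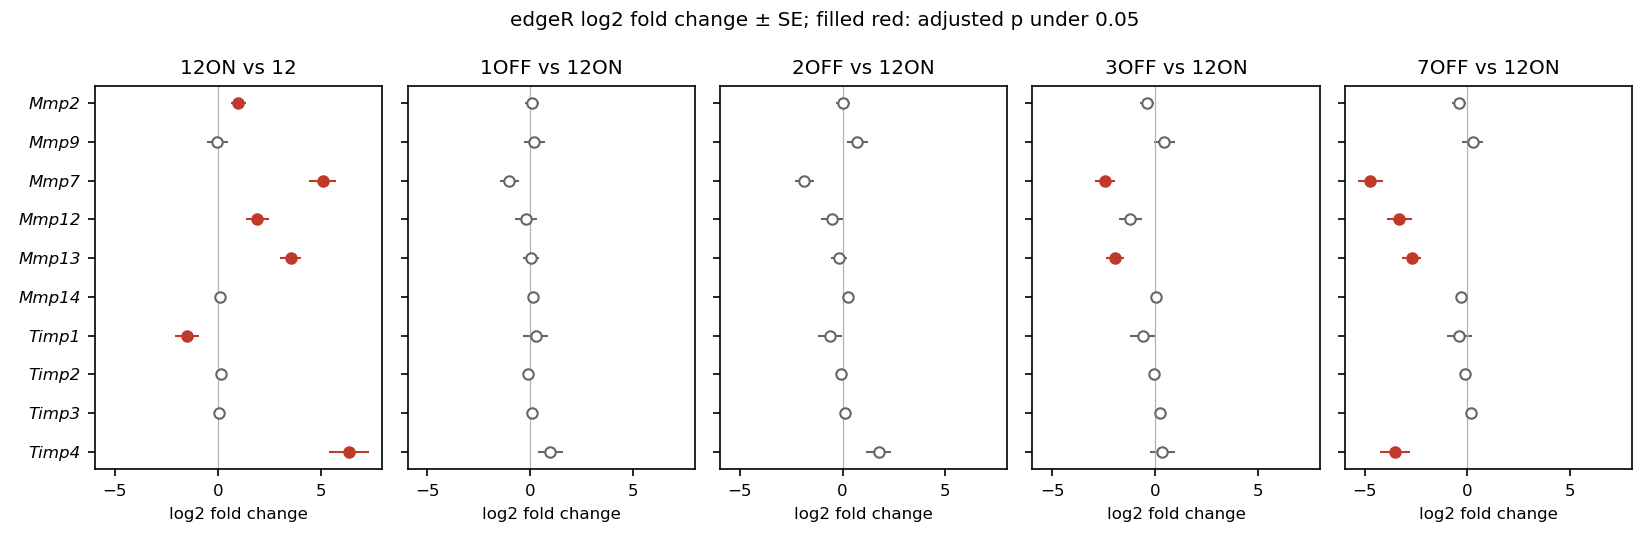
Log2 fold change ± SE from edgeR for the 10 genes in the 5 comparisons of the study, 1 panel each, with filled red points for an adjusted p under 0.05 and open points otherwise. The first panel has 5 filled points to the right and 1 to the left, the panels for 1OFF and 2OFF have none, and those for 3OFF and 7OFF have 2 and 4, all to the left.

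The promoters of Mmp7, Mmp12, Mmp13 and Timp4 are shown because these are the 4 genes that were higher in 12ON than in group 12 and lower in 7OFF than in 12ON. The first 3 lie in the same MMP gene cluster on chromosome 9, with Mmp13, Mmp12 and Mmp7 in this order and all on the plus strand. RefSeq windows (GRCm38.p6) were matched for 8 of the 10 genes, and not for Mmp2 and Mmp9. The 150 bases before the annotated start are given 5′ to 3′ on the strand of the gene, with capitals for matches to 4 motifs searched on both strands, AP-1 (TGANTCA), Ets (AGGAAG), E-box (CACGTG) and TATA box (TATAAA). No match overlaps another. They are Mmp7 at chr9:7691940-7692089 (plus), Mmp13 at chr9:7272364-7272513 (plus), Mmp12 at chr9:7344247-7344396 (plus) and Timp4 at chr6:115252206-115252355 (minus).
Mmp7: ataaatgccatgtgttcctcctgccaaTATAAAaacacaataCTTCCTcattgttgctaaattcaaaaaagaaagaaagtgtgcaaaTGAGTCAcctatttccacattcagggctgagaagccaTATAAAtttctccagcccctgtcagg
Mmp13: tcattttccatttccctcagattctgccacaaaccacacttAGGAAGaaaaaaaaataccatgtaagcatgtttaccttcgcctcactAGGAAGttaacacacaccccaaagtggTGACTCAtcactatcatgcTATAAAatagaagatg
Mmp12: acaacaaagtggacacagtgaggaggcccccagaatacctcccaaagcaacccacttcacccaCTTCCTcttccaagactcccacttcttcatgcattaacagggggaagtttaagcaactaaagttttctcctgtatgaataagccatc
Timp4: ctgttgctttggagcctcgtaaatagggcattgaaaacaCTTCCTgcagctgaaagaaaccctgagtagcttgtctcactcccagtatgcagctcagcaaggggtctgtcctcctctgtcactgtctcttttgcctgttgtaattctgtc

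In the window of Mmp7 an AP-1 match begins 63 bases before the start, and in that of Mmp13 one begins 35 bases before it. Both also hold a TATAAA near the start, at 26 bases before it in Mmp7 and 16 in Mmp13, and AGGAAG in 1 orientation or the other. The windows shown for Mmp12 and Timp4 hold 1 Ets match each and no AP-1, although a second annotated start of Mmp12 has an AP-1 match 44 bases before it. Of 32851 RefSeq windows of 300 bases, 7.81% held the AP-1 letters, 35.4% the Ets letters, 7.15% the E-box and 13.6% the TATAAA. None of the 4 sequences shown holds CACGTG, the E-box form to which MYC with MAX is known to bind, and a window at another annotated start of Mmp7 holds 1, which begins 50 bases before that start. A match of letters describes the sequence and does not show a bound factor.

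The second set of comparisons followed the same genes in the OFF groups against 12ON. These comparisons share the 12ON livers. In 1OFF none of the 10 genes passed, where 1 of 17789 genes did, or 0.00562%; this was Gm26714, named after its value was seen. At an unadjusted p under 0.05 there was 1 of the 10, Mmp7, and DESeq2 called 0 but gave Mmp7 no adjusted p. In 2OFF again none passed, where 0% of all genes did, with 2 of the 10 at an unadjusted p under 0.05 and 1 called by DESeq2. In 3OFF 2 genes were lower and 0 higher, with a background of 17% lower and 15.3% higher. In 7OFF 4 genes were lower and 0 higher, with a background of 22.7% lower and 21.4% higher. The median log2 fold change over the 10 genes was 0.08 in 1OFF, -0.03 in 2OFF, -0.22 in 3OFF and -0.40 in 7OFF, beside 0.003, 0.014, 0.013 and 0.006 over all tested genes. Without 2OFF replicate 2 the number of all genes called in 2OFF went from 0 to 1521, with still 0 of the 10 among them.

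Mmp7 had a lower mean in each OFF group with a later label. Its levels were 0.648, 0.925 and 1.27 CPM in 1OFF, 0.752, 0.404 and 0.338 CPM in 2OFF, 0.548, 0.323 and 0.136 CPM in 3OFF, and 0.0349, 0.0902 and 0.0704 CPM in 7OFF. All OFF livers lay below the 3 livers of 12ON, and the 7OFF livers below all livers of the other OFF groups. Against 12ON the log2 difference was -1.01 ± 0.45 in 1OFF (adjusted p = 0.316) and -1.86 ± 0.46 in 2OFF (edgeR adjusted p = 0.0656, DESeq2 adjusted p = 0.00616). It passed in 3OFF at -2.44 ± 0.48 (edgeR adjusted p = 0.0016) and in 7OFF at -4.72 ± 0.61 (adjusted p = 2.87e-05). In 7OFF only 1, 4 and 3 reads were counted, and the pooled level in 12ON was 27.3 times higher (exact 95% interval 13.7 to 63.8, counting error only).

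Mmp13 was at 6.66, 5.40 and 3.44 CPM in 1OFF, within the range of 12ON but for the ends, and was spread from 1.69 through 4.10 to 7.80 CPM in 2OFF. It was then 1.20, 1.12 and 1.65 CPM in 3OFF and 0.664, 0.857 and 0.774 CPM in 7OFF. The 6 livers of 3OFF and 7OFF lay below all livers of 12ON and 1OFF. Against 12ON the log2 difference was 0.04 ± 0.40 in 1OFF (edgeR adjusted p = 0.982), -0.17 ± 0.40 in 2OFF (0.878), -1.94 ± 0.43 in 3OFF (0.00326) and -2.71 ± 0.46 in 7OFF (0.000221). Without 2OFF replicate 2, the highest of that group, the difference in 2OFF was -0.84 (adjusted p = 0.19).

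Mmp12 was at 74.2, 55.8 and 35.6 CPM in 1OFF, 29.0, 65.0 and 41.2 CPM in 2OFF, 22.1, 19.2 and 42.8 CPM in 3OFF, and 4.96, 6.31 and 7.93 CPM in 7OFF. The 7OFF livers were below all other OFF livers, whose ranges overlapped from group to group. The log2 difference from 12ON was -0.21 ± 0.54 in 1OFF (edgeR adjusted p = 0.901), -0.51 ± 0.55 in 2OFF (0.693), -1.20 ± 0.55 in 3OFF (0.11) and -3.32 ± 0.61 in 7OFF (0.000449).

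Timp4 took a different course, with its highest mean in 2OFF. It was at 17.4, 14.8 and 72.6 CPM in 1OFF and at 71.2, 38.4 and 67.5 CPM in 2OFF. In 3OFF it was at 31.6, 28.9 and 6.64 CPM, and in 7OFF at 0.349, 1.17 and 2.89 CPM. All 3 livers of 2OFF exceeded all 3 of 12ON, yet the log2 difference of 1.75 ± 0.62 did not pass (edgeR adjusted p = 0.159). The difference in 1OFF, 0.98 ± 0.62 (0.503), was -0.13 without 1OFF replicate 3 (0.972). In 3OFF it was 0.36 ± 0.61 (0.696). The 7OFF livers lay below all 12ON livers, and the log2 fold change was -3.51 ± 0.73 (0.00117), or -4.42 without 7OFF replicate 3 (0.00123).

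The other 6 genes passed against 12ON in no OFF group. Mmp2 was at 16.0 ± 1.21 CPM in 1OFF, 15.4 ± 5.18 in 2OFF, 11.5 ± 4.10 in 3OFF and 11.4 ± 7.09 in 7OFF. Its 7OFF livers were at 6.25, 8.57 and 19.5 CPM, so that 2 lay at the level of group 12 and 1 above all of 12ON. Without that liver, 7OFF replicate 3, Mmp2 passed at -1.04 (edgeR adjusted p = 0.0102) and Mmp14 at -0.47 (adjusted p = 0.048), against -0.41 ± 0.34 (0.352) and -0.30 ± 0.17 (0.166) with it. The same liver was the highest of its group for Mmp9, Mmp12, Timp1, Timp2 and Timp4 as well, and it was the one of its group with high Xist. Mmp14 had its highest mean in 2OFF, 82.7 ± 4.52 CPM, and its lowest in 7OFF, 55.0 ± 14.5 CPM.

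Mmp9 spread widely within the late groups, with 24.6, 9.72 and 5.61 CPM in 3OFF and 5.14, 8.36 and 21.6 CPM in 7OFF. Its log2 differences from 12ON were 0.19 ± 0.51, 0.72 ± 0.51, 0.44 ± 0.51 and 0.26 ± 0.51 in 1OFF, 2OFF, 3OFF and 7OFF (edgeR adjusted p = 0.911, 0.52, 0.541 and 0.712). Its direction in 3OFF and 7OFF turned without the highest liver, to -0.35 and -0.53. Timp1 was at 1.78 ± 0.435, 0.976 ± 0.0514, 0.983 ± 0.340 and 1.12 ± 0.718 CPM in the same groups, Timp2 between 26.3 and 28.2 CPM in group means and Timp3 between 27.6 and 30.9 CPM. With standard errors of 0.24 for Timp2 and 0.17 for Timp3, differences of the size seen in Mmp13 would have stood far outside their error, while small ones could not be detected.

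Against group 12, the OFF groups gave 5 genes higher and 0 lower in 1OFF (background 17.1% higher, 16.3% lower), 4 higher and 1 lower in 2OFF (18.1% and 17%), 3 higher and 1 lower in 3OFF (9.47% and 7.95%), and 0 in 7OFF (2.47% and 3.31%). These comparisons share the livers of group 12. Timp4 was higher by 7.37 ± 0.98 in 1OFF, 8.14 ± 0.99 in 2OFF and 6.75 ± 0.98 in 3OFF on the log2 scale (edgeR adjusted p = 6.52e-05, 2.83e-05 and 0.000465). Mmp13 was higher by 3.57 ± 0.50, 3.36 ± 0.50 and 1.59 ± 0.50 (8.99e-05, 0.000137 and 0.0404), and Mmp7 by 4.09 ± 0.69, 3.24 ± 0.72 and 2.66 ± 0.75 (0.000445, 0.00274 and 0.0236). Without 12 replicate 2 the Mmp7 values were 5.71, 4.86 and 4.28, without 1OFF replicate 3 the Timp4 value in 1OFF was 6.26, and without 2OFF replicate 2 the Mmp13 value in 2OFF was 2.70.

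The calls against group 12 in 3OFF were weaker. That of Mmp7 was lost without 12 replicate 1 (2.32, edgeR adjusted p = 0.0649), 12 replicate 3 (2.12, 0.112) or 3OFF replicate 1 (2.13, 0.103). That of Mmp13 was lost without 12 replicate 1 or 2 or any of the 3 livers of 3OFF, at 1.41 to 1.70 with an adjusted p of up to 0.133. Mmp2, the gelatinase, passed in 1OFF at 1.07 ± 0.35 (0.0283) and 2OFF at 1.02 ± 0.35 (0.0329), and Mmp12, the elastase, in 1OFF at 1.71 ± 0.57 (0.0292). Mmp2 lost these calls without any of the 3 livers of group 12, without 1OFF replicate 1 or 2, or without 2OFF replicate 1 or 3, at 0.74 to 1.16. Mmp12 lost its call without 12 replicate 1 (1.23) or 2 (1.63) or 1OFF replicate 1 (1.44) or 2 (1.71), and was 2.60 without 12 replicate 3. With the mitochondrial share as a term the calls of Mmp2 ended, at 0.33 in 1OFF and 0.26 in 2OFF (edgeR adjusted p = 0.719 and 0.782), as did that of Mmp12 in 1OFF (0.80, 0.581) and those of Mmp7 and Mmp13 in 3OFF (3.14, 0.0683, and 1.36, 0.292). Timp4 passed with that term at 8.41 in 1OFF, 9.42 in 2OFF and 7.72 in 3OFF, and Mmp7 in 2OFF at 3.83. In fits of the groups compared alone, Mmp12 in 1OFF (0.0865) and Mmp7 in 3OFF (0.0973) did not pass. Timp1 was the gene that was lower in 2OFF and 3OFF, at -2.09 in both (0.0139 and 0.0274), and without 12 replicate 2 it was -0.69 in both (0.271 and 0.364). In 3OFF it was also lost without 3OFF replicate 1 (-1.86, 0.106) or 2 (-2.08, 0.0726). Neither Timp1 call held with the mitochondrial term (0.254 and 0.291) or in fits of the groups compared alone (0.0744 and 0.121).

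In 7OFF, 3 of the 10 genes differed from group 12 at an unadjusted p under 0.05, and DESeq2 called 1 higher, Timp4 (log2 2.85, adjusted p = 0.0109), and 1 lower, Timp1 (-1.89, adjusted p = 0.0168). The third was Mmp12 (-1.39 ± 0.58, edgeR unadjusted p = 0.0295, adjusted p = 0.171). The ranges of Timp4 did not overlap between 7OFF and group 12, with 0.349 CPM the lowest in 7OFF and 0.257 CPM the highest in group 12. The same held for Mmp13, with 0.664 and 0.603 CPM, although its log2 difference of 0.82 ± 0.53 did not pass (edgeR adjusted p = 0.388). How many of all genes had ranges apart in this way was not counted. Mmp7 overlapped between these groups. Timp4 in 7OFF rested on 10, 52 and 123 reads, fewer in each liver than those of Syn2, which shares exon bases with it.

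A direct comparison of 7OFF with 1OFF found the same 4 genes lower, Mmp7, Mmp12, Mmp13 and Timp4, and 0 higher, with a background of 15.8% lower and 14.8% higher. The log2 fold changes were -3.71 ± 0.63 for Mmp7 (edgeR adjusted p = 0.000635), -3.10 ± 0.60 for Mmp12 (0.00153), -2.75 ± 0.46 for Mmp13 (0.000535) and -4.50 ± 0.75 for Timp4 (0.000538). For Timp4 the value was -3.39 without 1OFF replicate 3 and -5.40 without 7OFF replicate 3.

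Several of these genes share exons with another gene on the opposite strand, and the counting did not use strand and gave a read to each gene it overlapped. Timp3 shares 1733 exon bases with Syn3, the synapsin gene in which it is nested, and over the 18 libraries the log2 CPM of both followed each other with a Pearson r of 0.96. Reads in the shared bases count for both. Timp4 shares 90 exon bases with Syn2, another synapsin gene (r = 0.72). Syn2 was at 4.03, 2.79 and 3.32 CPM in 12ON and at 0.415, 0.931 and 0.625 CPM in group 12, or 2.32 ± 1.49 apart on the log2 scale, which did not pass (edgeR adjusted p = 0.216). Against group 12, Syn2 was higher by 4.50 ± 1.47 in 1OFF, 5.43 ± 1.49 in 2OFF and 5.47 ± 1.49 in 3OFF (edgeR adjusted p = 0.028, 0.0104 and 0.02), the comparisons in which Timp4 was higher too. In 7OFF replicates 1, 2 and 3 Timp4 was at 0.349, 1.17 and 2.89 CPM and Syn2 at 0.699, 12.2 and 36.2 CPM, in the same order of livers. Shared reads count for both genes and so cannot outnumber those of Syn2. In 12ON Syn2 held 218, 127 and 176 reads and Timp4 1259, 672 and 773. In 7OFF Syn2 held 20, 542 and 1543 reads and Timp4 10, 52 and 123. In group 12 these were 8, 29 and 29 reads for Syn2 and 3, 8 and 9 for Timp4. The actual part of shared reads in the level of Timp4 was not tested. Mmp7 shares 123 bases with AV064505, which was under 1 CPM in every library, and Mmp12 157 bases with Mmp1b, which was at 0 in all libraries but 1 of 1OFF. Timp1 lies within Syn1 and Timp2 overlaps the span of Cep295nl without shared exon bases.

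**Figure D4:**
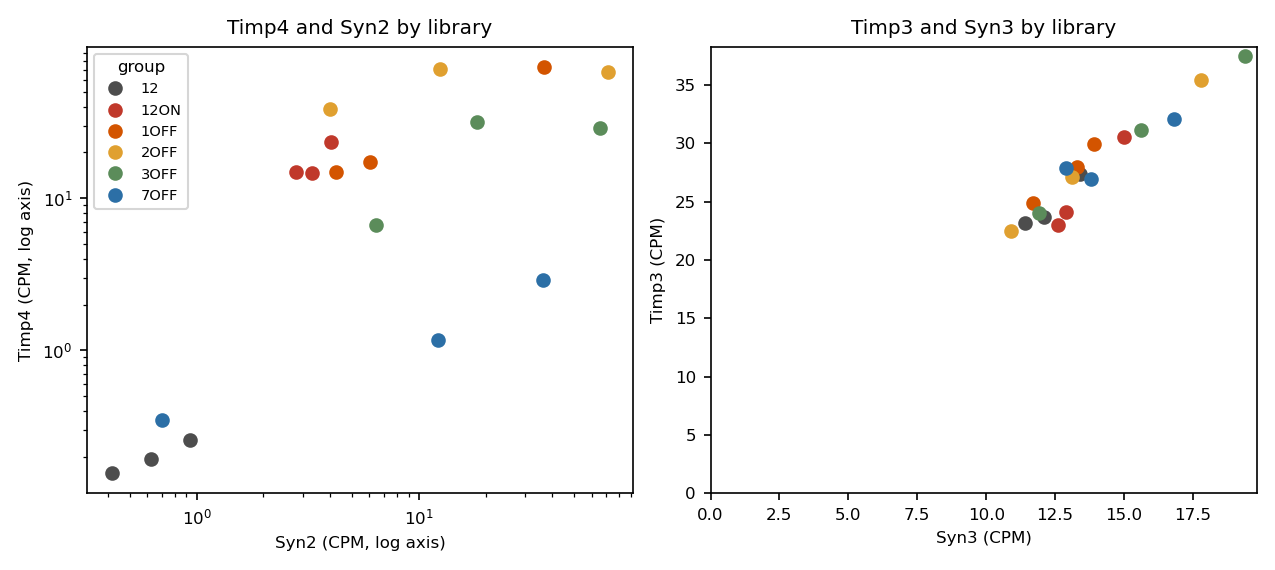
Timp4 against Syn2 (left, both axes logarithmic) and Timp3 against Syn3 (right, linear axes), in TMM-normalised CPM, 1 point per liver and 1 colour per group. The 3 livers of 7OFF lie low in Timp4 at Syn2 levels up to 36.2 CPM, while Timp3 and Syn3 lie along a single line.

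Other genes of the same proteolytic system were read from lists. Over all 17789 tested genes 24% were higher and 22.6% lower in 12ON than in group 12. In 7OFF against 12ON 21.4% were higher and 22.7% lower. With the term for the mitochondrial share 4117 of all genes were called in 12ON vs 12. A list count near these shares says little about the list. Of 11 other MMP genes tested, 1 was higher in 12ON than in group 12 and 1 lower. Mmp15, a membrane-type enzyme like Mmp14, rose from 22.1 ± 2.19 to 72.1 ± 3.57 CPM (log2 1.71 ± 0.17, edgeR adjusted p = 3.17e-06). Mmp19 fell by 0.48 on the log2 scale (SE 0.09, adjusted p = 0.000663). With the mitochondrial term 1 was higher and 0 lower. In 7OFF against 12ON, 1 of the 11 was higher and 2 were lower, but 0 and 0 with that term. The lower count was 1 when any library other than 7OFF replicate 1 was left out, and the higher count was 0 without 12ON replicate 2 or 7OFF replicate 2. Mmp10, Mmp1a and Mmp20 had 0 reads in all 18 libraries.

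Of 10 genes of the plasminogen system, whose product plasmin activates MMP precursors, 3 were higher in 12ON and 4 lower. The shares over all genes in this comparison were 24% higher and 22.6% lower. The activator gene Plat rose by 2.17 ± 0.44 (edgeR adjusted p = 0.000871) and Plaur, the receptor of urokinase, by 1.28 ± 0.32 (0.00439). Plg, the plasminogen gene of hepatocytes, fell from 3093 ± 376 to 1533 ± 276 CPM (log2 -1.01 ± 0.23, 0.0019), and Serpinf2, the plasmin inhibitor gene, fell too (-0.74 ± 0.16, 0.00126). With the mitochondrial share as a term 0 of the 10 passed in either direction. In 7OFF against 12ON Plg was higher by 1.03 ± 0.23 (0.00185) and Plat, Plaur and Plau were lower, in a count of 2 higher and 3 lower that was 1 and 2 with that term. The higher count was 1 without 12ON replicate 2 or 3 or 7OFF replicate 2 or 3. Of 11 other regulators, 3 were higher and 2 lower in 12ON, or 0 and 1 with the mitochondrial term. Pzp, an alpha-macroglobulin that traps proteases, fell from 7347 ± 2017 to 1631 ± 385 CPM (-2.17 ± 0.22, 2.74e-06). Of 16 ADAM and ADAMTS genes, 6 were higher and 1 lower, among the higher Adamts12 (1.58 ± 0.38, 0.00329), and the counts were 1 and 0 with the mitochondrial term. Without 12 replicate 1 the higher count was 3, without 12 replicate 2 it was 4 and 0 regulators were higher, and leaving out any other single library gave 5 to 8 higher ADAM and ADAMTS genes and 1 to 3 regulators.

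Of 18 genes of matrix proteins that MMPs cut, 13 were higher in 12ON than in group 12 and 1 was lower, with a list median of 0.93. Over all genes 24% were higher and 22.6% lower. Col1a1, the main chain of fibrillar collagen, rose from 37.4 ± 6.92 to 126 ± 11.1 CPM (log2 1.75 ± 0.32, edgeR adjusted p = 0.000428) and Col3a1 from 117 ± 22.8 to 345 ± 31.2 CPM (1.56 ± 0.29, 0.000498). Col4a1 of the basement membrane rose by 1.06 ± 0.18 (0.000217). Fn1, the fibronectin gene that hepatocytes also express, fell from 2402 ± 355 to 780 ± 162 CPM (-1.62 ± 0.20, 1.75e-05). Each fit that left out 1 library called 13 higher and 1 lower, whereas the fit with the mitochondrial share called 3 and 1. In 7OFF against 12ON, 11 were lower and 1 higher, and 10 and 1 with that term, where 22.7% of all genes were lower and 21.4% higher without it. Spp1 is in this list and among the bile duct cell markers below.

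Among 11 cytokine genes known to induce MMPs, 4 were higher and 4 lower in 12ON, where 24% of all genes were higher and 22.6% lower. Lif rose from 0.247 ± 0.0486 to 1.96 ± 0.278 CPM (log2 3.01 ± 0.54, edgeR adjusted p = 0.000338) and Tgfb2 by 1.61 ± 0.30 (0.000407). Tgfb1 was lower (-0.49 ± 0.14, 0.00922). With the mitochondrial term 2 of the 11 were higher and 0 lower. The lower count was 1 without 12ON replicate 2 or 3 and 2 without 12 replicate 1 or 3. Of 10 genes of AP-1 and related factors, which bind the AP-1 letters shown in the Mmp7 and Mmp13 promoters, 3 were higher and 2 lower, or 3 and 1 with the mitochondrial term. Jun rose from 18.7 ± 4.87 to 60.7 ± 3.17 CPM (1.70 ± 0.26, 0.000105) and Atf3 from 2.72 ± 1.17 to 14.3 ± 1.57 CPM (2.35 ± 0.38, 0.000145), and in 7OFF both were lower than in 12ON, by -1.77 ± 0.26 (8.64e-05) and -2.65 ± 0.38 (6.95e-05). Fosl2 went the other way in 12ON, from 19.4 ± 3.12 to 10.5 ± 2.28 CPM (-0.89 ± 0.21, edgeR adjusted p = 0.00254). The median of the AP-1 list in 12ON against group 12 was -0.03. Whether these AP-1 factors act on the MMP genes was not tested.

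Markers of cells that can make these enzymes were read in the same comparisons. Over all genes 24% were higher and 22.6% lower in 12ON than in group 12. Against 12ON 15.3% were higher and 17% lower in 3OFF, and 21.4% and 22.7% in 7OFF. Of 11 bile duct cell markers, 9 were higher and 1 lower in 12ON than in group 12, and their summed level was 317 to 341 CPM against 201 to 258 CPM. Epcam rose from 0.712 ± 0.167 to 6.56 ± 0.768 CPM (log2 3.16 ± 0.35, edgeR adjusted p = 5.27e-06) and Tspan8 by 3.81 ± 0.51 (3.12e-05). Aqp1 was the lower marker, falling from 155 ± 12.0 to 91.0 ± 7.34 CPM (-0.77 ± 0.15, 0.000739). With Spp1, at 158 ± 11.6 CPM, Aqp1 made up most of the 12ON sum. In both 3OFF and 7OFF 9 of the 11 were lower than in 12ON and 1 higher, with sums of 213 to 253 and 204 to 258 CPM. The higher marker was Aqp1, at 128 ± 30.6 CPM in 3OFF and 138 ± 14.7 CPM in 7OFF, a large part of these sums. Of 14 markers of monocytes and macrophages, 4 were higher in 12ON and 3 lower, and the sums overlapped, with 855 to 1087 CPM in group 12 and 730 to 917 CPM in 12ON. Trem2 of scar-associated macrophages rose from 2.91 ± 1.44 to 13.4 ± 2.95 CPM (2.16 ± 0.32, 6.76e-05) and Cd63 by 2.61 ± 0.26 (2.92e-06), whereas Adgre1 and Csf1r, found on most liver macrophages, fell by 1.00 and 0.89. In 7OFF 7 of the 14 were lower than in 12ON and 0 higher, and the sum was 477 to 601 CPM.

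Of 8 Kupffer cell markers, 0 were higher and 5 lower in 12ON than in group 12, with sums of 623 to 1017 and 1247 to 1664 CPM. The shares over all genes were again 24% higher and 22.6% lower. Of 12 markers of stellate cells and myofibroblasts, 2 were higher and 1 lower, and the sums were 215 to 238 CPM in 12ON and 187 to 229 CPM in group 12. Leaving out any single library left 0 or 1 of the 2 higher. Of 11 neutrophil markers none passed in this comparison, where 0 had an unadjusted p under 0.05 and DESeq2 called 0. Their sums were 344 to 437 CPM in 12ON and 297 to 461 CPM in group 12, and spread from 134 to 962 CPM in 3OFF. Without 3OFF replicate 1, the liver with the highest Mmp9, 4 of the 11 were lower in 3OFF than in 12ON. All 10 sinusoidal endothelial markers and 8 of 9 hepatocyte markers were lower in 12ON. The other hepatocyte marker, Cps1, was higher, from 1626 ± 257 to 3045 ± 127 CPM (log2 0.91 ± 0.19, edgeR adjusted p = 0.000999). No gene of these marker lists was at 0 in all libraries of any group. With the mitochondrial term, 6 bile duct cell markers were higher and 1 lower in 12ON, 4 macrophage markers higher and 0 lower, 1 Kupffer cell marker lower, 0 stellate cell markers called, and 8 endothelial and 5 hepatocyte markers lower. In that fit 0 hepatocyte markers were higher. The part of these cell types in the levels of the MMP and TIMP genes was not tested.

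Ranked by likeness of pattern, the 2 genes with the highest Pearson r of log2 CPM over the 18 livers were Thbs2 (0.96) and Lum (0.93) for Mmp2, Retnlg (0.93) and Mmp8 (0.91) for Mmp9, and Gm27288 and Rpl21 (both 0.96) for Mmp7. For Mmp12 they were Cdc42se1 (0.93) and Itgax (0.92), for Mmp13 Anxa5 and Tnfrsf12a (both 0.97), and for Mmp14 Plppr1 (0.95) and Ccr1 (0.93). Timp4 was most like Igf2 (0.97) and Smoc2 (0.96), while Timp1 reached 0.87 with Spdya and Timp2 0.84 with Igfbp7. Livers of the same group share treatment, so that r mixes group differences with those between mice. Within the family the highest values were 0.83 for Mmp12 with Mmp13, 0.82 for Mmp7 with Mmp13 and 0.81 for Mmp7 with Timp4. Mmp13 and Mmp9 stood at 0.13, and Timp1 with Timp3 at -0.45.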

How the data were processed

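Poly-A libraries of 18 livers gave single-end reads of 50 bases, per the labels' protocols. Per the submitters' processing notes, Trim Galore, TopHat2 and mm10 were used, with no versions. The deposited values are raw read counts per gene, made by the authors with featureCounts on exons of Ensembl 82 genes (GRCm38), without strand and with a read counted for each gene it overlapped by at least 10 bases, per the file headers.

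Symbols were found for 34599 of 34937 gene IDs. Counts were fitted with edgeR 4.0.16 in R 4.3.3 after filterByExpr (minimum count 10) and TMM scaling, all 18 libraries in 1 quasi-likelihood fit with 12 residual degrees of freedom. Tests were two-sided F tests with Benjamini-Hochberg adjustment over 17789 genes, and the SE is the log2 fold change over the root of F. RPKM used the exon length in the files, and levels were also read as CPM on raw library totals. No pair of replicates agreed within sampling noise (chi-square per gene 33.9 or more). On simulated counts for 12ON vs 12 (17504 genes), 56% of 50 genes changed 2-fold and 94% of 50 changed 4-fold were recovered, with 13 false calls in all. Every simulated gene had the same spread and only a small share was changed. These rates are therefore not the power for a given gene in the real comparison.

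All 10 family genes are named. In each list called genes with a mean of at least 1 CPM could be named, up to 4 per direction in order of p, and for likeness the 2 genes with the highest r. The members, lists, rules and alternatives were chosen with earlier results of these data known. Klkb1 and Tf of the lists were not matched by symbol. Alternatives were RLE and upper-quartile scaling, other filters and thresholds, DESeq2 1.42.0, a 1.5-fold test, fits of 2 groups alone, a replicate block, terms for Xist (100 CPM or more) and for the mitochondrial share, and leaving out each library.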

Additional observations from a re-analysis of the deposited data

Results flagged for a closer look

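For 4 genes the change against 12ON differed between 7OFF and 1OFF, by a direct test of these 2 groups in edgeR. On the log2 scale the change in 7OFF minus that in 1OFF was -3.71 for Mmp7, -3.10 for Mmp12, -2.75 for Mmp13 and -4.50 for Timp4. All 3 livers of 7OFF lay below all 3 of 1OFF for each of these 4 genes. The genes were picked by the test of the same livers, so this adds no support of its own. Over all genes 15.8% were lower and 14.8% higher in 7OFF than in 1OFF.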

How the results depend on the processing

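Of 30 called values of the 10 genes, 438 of 510 values under alternatives stayed called in the same direction, 72 were not called and 0 reversed. Of 38 values that were not called in the study's own comparisons, 605 of 645 stayed so in the same direction, 5 became called and 35 reversed. Values not called in the other comparisons were left out of this count. Summed as CPM in place of RPKM, the ratio of MMPs to TIMPs was 1.76 in group 12 and 2.24 in 12ON.

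With the term for the mitochondrial share, 3 of the 10 genes and 4117 of all genes were called in 12ON vs 12, 3 and 1847 in 1OFF vs 12, 3 and 1901 in 2OFF vs 12, 1 and 731 in 3OFF vs 12, 417 of all genes in 7OFF vs 12, 3372 in 7OFF vs 1OFF and 0 in 1OFF vs 12ON. That term turned Timp2 to -0.35 and Timp3 to -0.25 in 12ON vs 12, Mmp2 to -0.03 in 2OFF vs 12ON, and Timp2 to 0.05 in 3OFF and 0.14 in 7OFF vs 12ON. The Xist term turned Mmp9 in 12ON vs 12 to 0.05, Mmp12, Mmp13 and Timp2 in 1OFF vs 12ON to 0.06, -0.04 and 0, and Mmp2 in 2OFF vs 12ON to -0.04, and left 0 genes called in 1OFF vs 12ON.

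The 1.5-fold test called 2892 genes in 12ON vs 12, 0 in 1OFF, 966 in 3OFF and 2362 in 7OFF vs 12ON, 1417 (3 of the 10) in 1OFF, 1553 (3) in 2OFF, 321 (1) in 3OFF and 39 in 7OFF vs 12, and 934 in 7OFF vs 1OFF. At an adjusted p of 0.01 it was 3 of the 10 in 12ON vs 12, and over all genes 0 in 1OFF and 3248 in 3OFF vs 12ON, 3499 (3 of the 10) in 1OFF, 3838 (3) in 2OFF, 1249 (1) in 3OFF and 179 in 7OFF vs 12, and 3014 in 7OFF vs 1OFF. DESeq2 called 526 genes in 1OFF and 933 in 2OFF vs 12ON (1 of the 10) and 1678 in 7OFF vs 12 (2 of the 10). Fits of 2 groups alone called 171 genes in 1OFF vs 12ON, 1807 (2 of the 10) in 3OFF vs 12 and 218 in 7OFF vs 12, and the 1 CPM filter 51 in 2OFF vs 12ON. The causes were not tested.

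Replicate numbers did not pair the livers, with correlations of deviations from -0.18 to 0.291, and in no comparison were all 3 pairs over 0.1. A replicate block called 18 genes in 1OFF and 439 in 2OFF vs 12ON, there with 1 of the 10 (Mmp7, adjusted p = 0.0474), and gave Mmp2 -0.01 there. It ended the calls of Timp1 in 12ON vs 12 (-1.36, edgeR adjusted p = 0.092) and Mmp13 in 3OFF vs 12 (1.61, 0.0526), and no other call of the 10 genes changed.

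Leaving out each library in turn, with the spread pooled over all groups, gave 0 genes called in 1OFF vs 12ON, 0 to 1521 in 2OFF vs 12ON (1521 without 2OFF replicate 2, 21 without 12ON replicate 1) and 3721 to 5179 in 3OFF vs 12ON (3721 without 12ON replicate 2). Against group 12 it gave 3 to 5 of the 10 in 1OFF, 1 to 3 and 1798 to 2532 of all genes in 3OFF (1798 without 3OFF replicate 1), and 0 to 1 and 366 to 1267 of all genes in 7OFF (366 without 7OFF replicate 1, 1267 without 7OFF replicate 3). Values of genes that were not called crossed 0. In 12ON vs 12 Mmp9 ran from -0.21 to 0.32 and Timp3 from -0.07 to 0.14. In 1OFF vs 12ON Mmp9 ran from -0.10 to 0.33, Mmp12 from -0.49 to 0.04, Mmp13 from -0.19 to 0.25, Timp2 from -0.25 to 0.01 and Timp4 from -0.13 to 1.35. In 2OFF vs 12ON Mmp2 ran from -0.27 to 0.21, Mmp13 from -0.84 to 0.23, Timp2 from -0.34 to 0.12 and Timp3 from -0.06 to 0.26. In 3OFF vs 12ON Mmp9 ran from -0.35 to 0.81, Mmp14 from -0.08 to 0.16 and Timp2 from -0.11 to 0.07, and in 7OFF vs 12ON Mmp9 from -0.53 to 0.61 and Timp2 from -0.44 to 0.04.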
